A study of Rattus norvegicus with 24 samples.

Results

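The odorant receptor genes of families 6 and 9 to 14 were followed in male Fischer rats that had inhaled formaldehyde, an irritant gas, in 2 tissues, nasal epithelium and the white cells of the blood. The genes were chosen by name alone. Every probe set (the group of short probes on an array that reads one transcript) with exactly 1 gene symbol was taken where its current rat symbol was Or6, Or9, Or10, Or11, Or12, Or13 or Or14 followed by a letter, whatever its intensity. This gave 276 of the 14506 named genes on the array, among 1052 genes for odorant receptors in all. Family 6 held 78 genes, family 9 held 29, family 10 held 71, family 11 held 15, family 12 held 22, family 13 held 40 and family 14 held 21. All 276 are protein-coding in the RefSeq annotation of GRCr8, and they fall into 76 subfamilies, which share the letters after the family number. For the 6 genes with 2 probe sets, the one with the higher mean over the nose arrays was used.

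Exposed rats breathed 2 ppm formaldehyde, vaporised from an isotope-labelled paraformaldehyde, for 6 hours a day through nose-only tubes over 7 or 28 days. Control rats sat in the same tubes with room air for as long. The rats were about 8 weeks old at the start, and the labels name no other agent and no genetic change. Nasal tissue was taken from the maxilloturbinate and white blood cells from whole blood, which gave 8 groups and 24 arrays, 3 for every combination of tissue, exposure and day. The labels do not say whether the 3 samples of a group came from 3 rats, so every p-value here measures the spread between samples, which may be partly technical.

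Odorant receptors are membrane receptors coupled to a G protein, and a mature olfactory neuron is known to transcribe a single receptor gene out of the whole repertoire. A bound odorant acts through the G protein subunit Gnal and the cyclase Adcy3 to open a channel built on Cnga2. The families treated here belong to the class II receptors, whose neurons lie in overlapping zones of the olfactory epithelium, while the maxilloturbinate is covered largely by respiratory epithelium. For most of these rat receptors no odorant can be named with certainty. An exception by its mouse counterpart is Or10j5, which in the mouse binds the synthetic odorant lyral.

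Values are log2 of the normalised intensity that the authors deposited, and a difference of 1 is 2-fold. Arrays of a tissue and day were on near-equal scales, but the 7 day and 28 day arrays were not: over all probe sets the median was 8.26 to 8.28 on the exposed and control nose arrays of 7 days and 7.35 to 7.42 on those of 28 days. Levels are therefore set side by side only within a day. In unexposed nose against unexposed blood at 7 days, 6 of 6 sustentacular cell markers and 7 of 7 measured markers of ciliated respiratory cells were higher, and 6 of 6 leukocyte markers were lower (limma, adjusted p under 0.05). In both control groups of the nose, replicate 1 stood apart in the genes of odor transduction. It was also the lowest control in the list means of sustentacular cells, receptor transport and immature neurons, and the highest in that of endothelium. The mean over 15 genes of odor transduction was 11.52, 11.36 and 11.30 in exposed nose at 7 days, against 9.58, 10.49 and 10.33 in control nose. At 28 days it was 9.99, 10.19 and 9.90 in exposed nose, against 8.23, 9.87 and 9.59 in control nose. The mean over the sustentacular markers in control nose was 11.45, 12.28 and 12.15 at 7 days and 9.42, 11.65 and 11.59 at 28 days. That of the endothelial markers was 9.69, 9.36 and 9.44 at 7 days and 8.52, 8.17 and 8.16 at 28 days. Over the 276 members the 28 day controls spread both ways. Replicate 1 lay below both other controls in 203 members, and replicate 3 lay above both in 198. At 7 days replicate 1 lay below both other controls in 139 members and above both in 81. Counts and named genes that moved most when control replicate 1 was left out are also given without it.

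To show what kind of sequence lies at these genes, the RefSeq window around the start is printed for 3 members with different responses: Or12e1 had the largest rise at 7 days, Or6c1h the smallest p in family 6, and Or10j27 the highest mean over the nose arrays. Such a window was at hand for 232 of the 276 members (GRCr8). In all 232 the annotated start falls on the start codon, so the window holds 250 bases before the coding sequence and its first 50 bases. For genes with unannotated leading exons it is not the promoter. Bases run 5′ to 3′ on the gene's strand, and capitals mark TAATTA, a core of homeodomain sites such as those of Lhx2; of the 3, only Or6c1h holds it.
Or12e1 (chr3:93045376-93045675, plus strand): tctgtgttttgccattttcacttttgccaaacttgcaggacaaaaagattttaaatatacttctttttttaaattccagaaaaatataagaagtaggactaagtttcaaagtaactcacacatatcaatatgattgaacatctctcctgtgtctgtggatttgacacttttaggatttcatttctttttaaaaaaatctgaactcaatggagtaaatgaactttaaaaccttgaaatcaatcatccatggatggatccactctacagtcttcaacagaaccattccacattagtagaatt
Or6c1h (chr7:2727594-2727893, plus strand): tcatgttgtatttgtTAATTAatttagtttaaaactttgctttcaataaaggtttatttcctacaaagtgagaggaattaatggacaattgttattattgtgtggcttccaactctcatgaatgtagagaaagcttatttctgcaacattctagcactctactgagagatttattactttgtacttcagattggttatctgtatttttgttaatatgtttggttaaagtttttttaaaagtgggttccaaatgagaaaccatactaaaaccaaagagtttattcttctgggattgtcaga
Or10j27 (chr13:88123294-88123593, minus strand): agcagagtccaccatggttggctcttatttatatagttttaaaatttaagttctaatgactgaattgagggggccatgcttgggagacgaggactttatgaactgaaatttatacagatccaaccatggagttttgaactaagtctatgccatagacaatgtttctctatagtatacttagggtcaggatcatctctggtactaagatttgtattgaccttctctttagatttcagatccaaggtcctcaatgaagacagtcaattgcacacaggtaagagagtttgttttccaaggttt
Searched on both strands in the 250 bases before the start, TAATTA was found in 39 of 232 members (16.8%), in 18.8% of 796 windows of other receptor genes and in 4.86% of all 33469 gene windows. It was found in 17.2% of the 134 members with a window that rose in exposed nose at 7 days and in 16.3% of the 98 that did not pass the test. The core CCCNNGGG of the sites bound by Ebf factors was found in 2 members (0.862%), against 10.8% of all windows. The median share of G and C was 36% in the members' windows and 51.2% over all windows. Windows of the other receptor genes began at a start codon in 96.5% of cases but those of genes that are not receptors in 6.2%, so the shares over all windows mostly describe sequence around transcript starts and not before coding starts.

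At 7 days most of these receptor genes were higher in the exposed nose. In exposed nasal epithelium 163 of the 276 genes were higher than in control, 0 were lower, and 113 did not pass the test (limma, adjusted p under 0.05 by Benjamini-Hochberg over all 29214 probe sets). The members higher were 59.1% of the 276, while of all probe sets 7.22% were higher and 5.62% were lower. The rise passed the test and was at least 2-fold in 119 members, as it was in 3.24% of all probe sets. The median difference was 0.92 over the members (interquartile range 0.51 to 1.57) and -0.05 over all probe sets. More cells that carry these receptors and more receptor RNA per cell cannot be told apart in such bulk tissue.

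The shift was visible on each array. The median level over the 276 members was 7.90, 7.35 and 7.47 on the exposed nose arrays of 7 days, against 6.33, 6.39 and 6.41 on the control arrays. Exposed replicate 1 was the highest of the 6, and the groups did not overlap. Gene by gene, all 3 exposed arrays lay above all 3 control arrays in 219 members (18.3% of all probe sets did so). All 3 lay below in 1 member, Or12e9, named here after its values were seen (27.8% of all probe sets did so). Its difference of -0.22 ± 0.13 (SE) did not pass (adjusted p = 0.332).

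**Figure D1:**
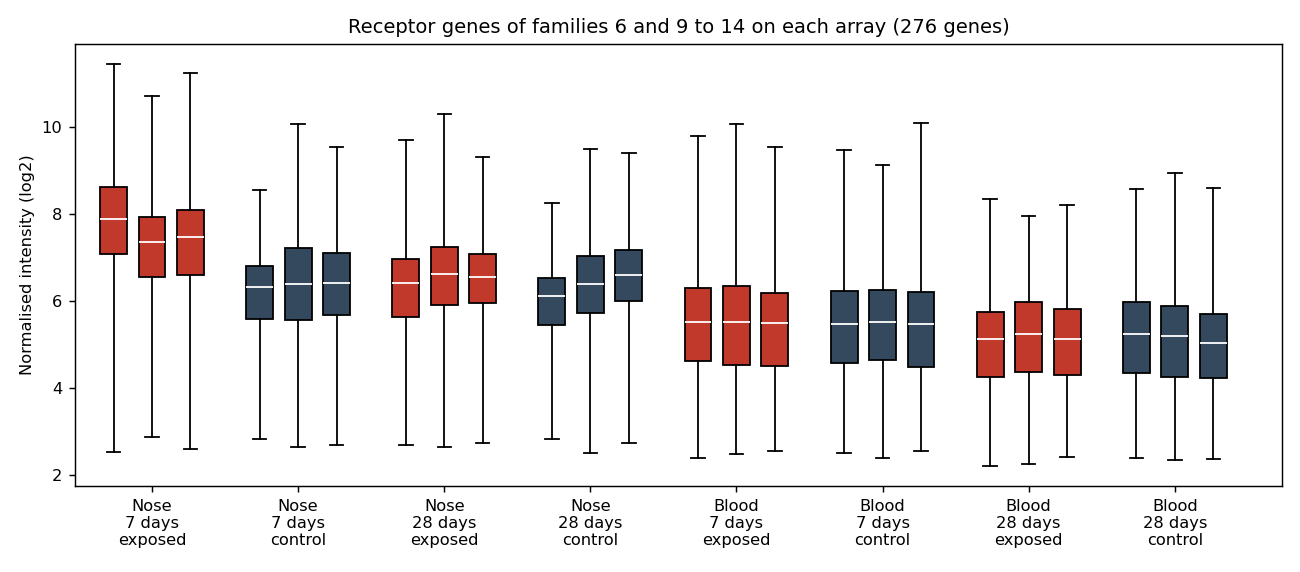
Level of the 276 receptor genes on each of the 24 arrays, as log2 normalised intensity: boxes span the interquartile range, white lines are medians and whiskers reach the lowest and highest gene, with exposed arrays in red and control arrays in dark blue. The 3 exposed nose arrays of 7 days have medians of 7.35 to 7.90, above the 6.33 to 6.41 of their controls, while the other pairs of groups overlap.

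Of the 5 largest rises, 4 were in family 12 and 1, that of Or6c1h, in family 6. Or12e1 had a log2 intensity of 9.02, 7.61 and 8.35 in exposed nose at 7 days, against 5.06, 4.03 and 4.75 in control nose. The lowest exposed array stood more than 2 log2 units above the highest control array. The difference was 3.72 ± 0.36 (SE, adjusted p = 0.000532). Its relatives of subfamily Or12j followed closely. Or12j5 had 11.44, 10.71 and 11.24 in exposed nose, against 8.15, 7.46 and 7.70 in control nose, a rise of 3.36 ± 0.35 (adjusted p = 0.000664). Or12j4 rose by 3.25 ± 0.45 and Or12j3 by 3.11 ± 0.41. The remaining 2 genes of the subfamily rose as well, Or12j2b by 1.96 ± 0.35 and Or12j2 by 1.09 ± 0.18, so that all 5 passed the test, also with any 1 of the 6 arrays left out.

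The first 50 coding bases of the Or12j genes that rose most are printed to show how alike neighbouring probe targets can be. Capitals mark bases that differ from Or12j5 at the same position (RefSeq, GRCr8).
Or12j5 (chr1:204847994-204848043, minus strand): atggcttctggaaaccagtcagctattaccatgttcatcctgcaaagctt
Or12j4 (chr1:204792623-204792672, plus strand): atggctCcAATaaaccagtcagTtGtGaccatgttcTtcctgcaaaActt
Or12j3 (chr1:204695205-204695254, minus strand): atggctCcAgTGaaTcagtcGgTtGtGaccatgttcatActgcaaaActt
Or12j4 shares 41 of the 50 bases with Or12j5, and Or12j3 shares 39. Among the 232 members with a window, 94 have another receptor gene whose start is at least 90% identical, and in 17 the closest start is identical. The positions of the array's probes were not used here, so signal shared between such close copies was not tested.

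A second pair of close relatives differed in response. Or6c1h and Or6c1 share 45 of these 50 bases, and capitals mark where Or6c1 differs.
Or6c1h (chr7:2727844-2727893, plus strand): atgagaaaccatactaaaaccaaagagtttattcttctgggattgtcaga
Or6c1 (chr7:4490861-4490910, plus strand): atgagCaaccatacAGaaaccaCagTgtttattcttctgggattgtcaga
Or6c1h had 8.65, 7.65 and 7.56 in exposed nose at 7 days, against 4.74, 4.57 and 4.55 in control nose. It rose by 3.33 ± 0.29 (adjusted p = 0.000375), with its groups far apart. Or6c1 had 2.53, 2.87 and 2.63 in exposed nose, against 2.83, 2.65 and 2.70 in control nose, among the dimmest values on these arrays, with a difference of -0.05 ± 0.10. Or13c3 and Or13c3c have identical starts and both were higher. Or13c3 had 6.99, 4.35 and 6.41 in exposed nose, against 3.26, 3.15 and 3.53 in control nose, so exposed replicate 2 was much lower than the other two. Its rise of 2.60 ± 0.62 (adjusted p = 0.0218) no longer passed in 5 of the 6 fits without 1 array, which gave 2.07 to 3.39. Or13c3c rose by 2.14 ± 0.37 (adjusted p = 0.0062).

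Families 13, 14, 9, 10 and 11 each held genes with rises of a similar order. Or13a27e had 9.31, 8.49 and 8.99 in exposed nose at 7 days, against 6.39, 5.76 and 5.84 in control nose, and rose by 2.94 ± 0.33 (adjusted p = 0.000901). Or14a257d had 9.19, 8.14 and 8.19 in exposed nose, against 6.20, 5.14 and 5.61 in control nose, and rose by 2.86 ± 0.31 (adjusted p = 0.000764). In both genes every exposed array was above every control array and exposed replicate 1 was the highest. Or14j5e had the smallest p of family 14, with 7.08, 6.34 and 6.77 in exposed nose, against 4.61, 3.80 and 4.03 in control nose, a rise of 2.59 ± 0.22. Or9g20 of family 9 rose by 2.47 ± 0.28, Or10ag2 and Or10a4 of family 10 by 2.93 ± 0.35 and 2.25 ± 0.27, Or13a18b of family 13 by 2.41 ± 0.23, and Or11a4 of family 11 by 1.98 ± 0.22. None of these genes had overlapping groups.

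**Figure D2:**
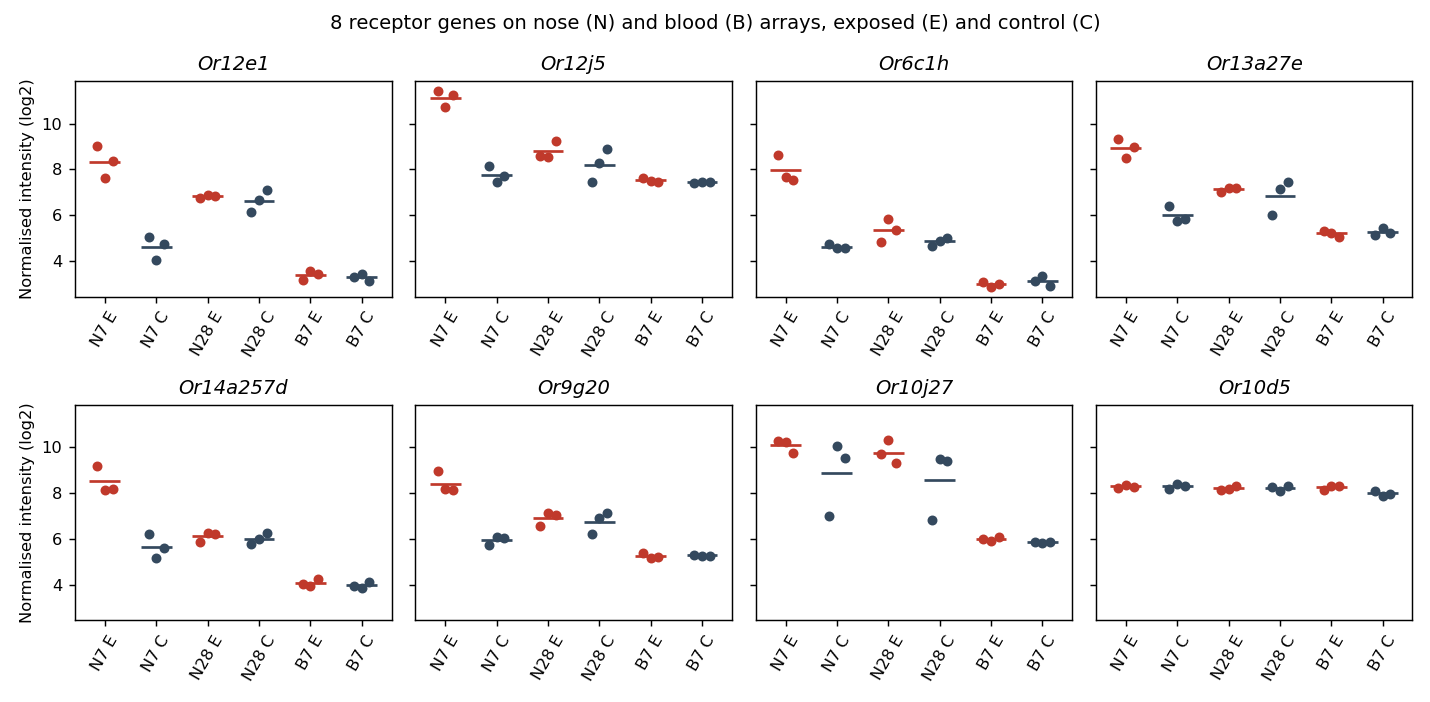
Log2 normalised intensity of 8 receptor genes in nose at 7 and 28 days (N7, N28) and blood at 7 days (B7), exposed in red (E) and control in dark blue (C); dots are arrays in replicate order and lines are means of 3. Or12e1, Or12j5, Or6c1h, Or13a27e, Or14a257d and Or9g20 are higher on all 3 exposed nose arrays of 7 days than on the controls of that day, Or10j27 is lower on control replicate 1 than on the other nose arrays at both days, and Or10d5 lies between 7.89 and 8.40 in every group shown.

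The families differed in how many of their genes passed. Family 14 had 20 of 21 genes higher with a median difference of 1.76, and family 12 had 18 of 22 with a median of 1.37. Family 9 had 22 of 29 (median 1.25), family 11 had 10 of 15 (1.23) and family 13 had 24 of 40 (1.09). Families 6 and 10, the most numerous, had 40 of 78 (0.81) and 29 of 71 (0.71). Some of these counts hung on 1 array. Family 9 had 12 genes higher without exposed replicate 1, and also without control replicate 1. Family 11 had 5 without exposed replicate 1 and 6 without control replicate 1, and the median of family 10 was 0.41 without control replicate 1. Family 12 had 13 without exposed replicate 1, without control replicate 1 or without control replicate 3. Over the 6 fits without 1 array, family 13 had 17 to 28 and family 6 had 29 to 37. Family 10 had 21 to 31 and family 14 had 16 to 19. No test of the difference between families was made.

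**Figure D3:**
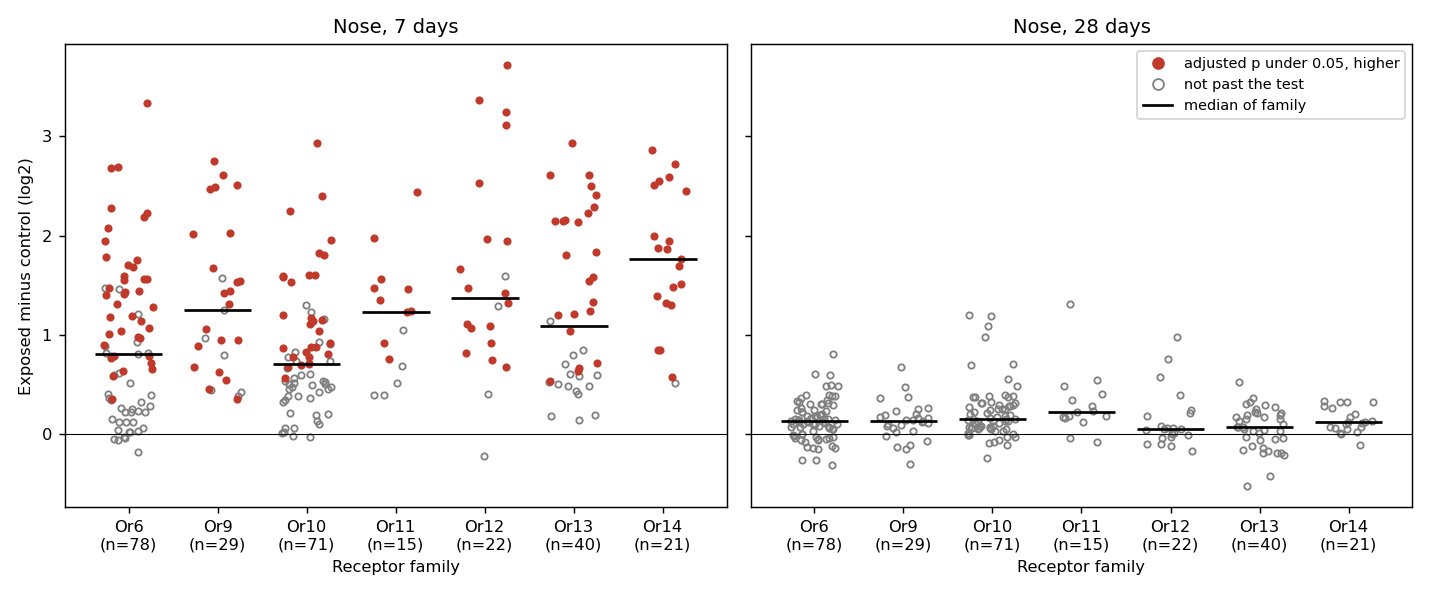
Exposed minus control difference (log2) in nose at 7 days (left) and 28 days (right) for each of the 276 genes by family; filled red dots passed the test, open grey dots did not, and bars are family medians. At 7 days the medians run from 0.71 in family 10 to 1.76 in family 14 and 163 genes are filled; at 28 days none is.

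Within a family the subfamilies ranged widely. All 9 genes of Or14j were higher (median 1.87), as were 14 of 16 of Or13a (1.99), 5 of 6 of Or9g (1.95), 5 of 6 of Or14a (1.78) and 7 of 9 of Or6d (1.68). The counts for Or13a, Or14a and Or6d were the same in all 6 fits without 1 array, and those for Or14j and Or9g fell by at most 1. At the other end, 0 of 6 genes of Or6k (median 0.02), 0 of 6 of Or10g (0.53) and 1 of 11 of Or10d (0.51) passed. Without control replicate 1 the median of Or10d was 0.04 and that of Or10g was 0.31. Subfamily Or6c, with 38 genes, spanned almost the whole range, between -0.06 for Or6c6h and 3.33 for Or6c1h, and 17 of its genes were higher (9 without control replicate 1).

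**Figure D4:**
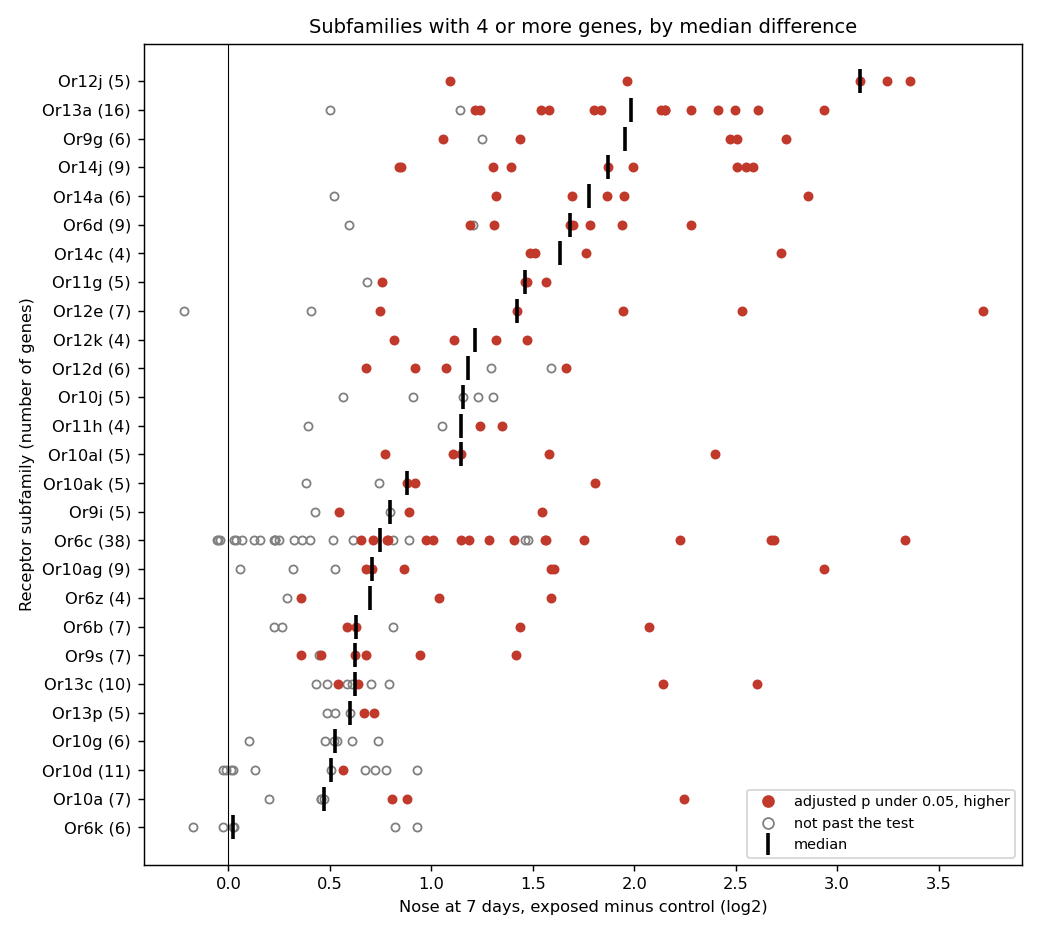
Exposed minus control difference (log2) in nose at 7 days for the 27 subfamilies with 4 or more genes (211 genes); filled red dots passed the test, open grey dots did not, and black ticks are medians. Or12j is at the top with a median of 3.11 and Or6k at the bottom with 0.02.

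Members that follow each other within a genomic cluster had closer differences than members in general. A cluster was a run of receptor genes of any family, with at most 5 other genes between successive receptor genes. Members lay in 35 clusters in the gene order of GRCr8. Genes that are not members, other receptor genes included, could lie between the 2 members of a pair. In 241 such pairs the median absolute gap between the 2 differences was 0.54. It was 0.64 over the 1301 pairs within a subfamily and 0.72 over all 37950 pairs. These are descriptions, since pairs share genes and arrays. The cluster with Or12j and most of Or13a held 23 members, of which 20 were higher (median 1.96). The cluster with Or10d and 4 other subfamilies held 17, of which 1 was higher (median 0.51).

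Members were also divided by their level in control tissue. In control nose at 7 days 115 members had a mean at or above 6.61, the 25th percentile of all probe sets in the nose, and 51 of them were higher after exposure (median 0.74), while 6.54% of the 23087 probe sets at such levels were. Of the 161 members with a control mean below 6.61, 112 were higher (median 1.24), while 9.78% of the 6127 probe sets at such levels were. After exposure 221 members had a mean at or above 6.61. The split and the difference use the same control arrays, so a low control value favours both the lower group and a larger rise.

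Some of the brightest members were low on a single control array. Or10j27 had 10.30, 10.23 and 9.77 in exposed nose at 7 days, against 6.99, 10.07 and 9.54 in control nose. At 28 days it had 9.71, 10.31 and 9.30 in exposed nose, against 6.84, 9.50 and 9.41 in control nose. On both days control replicate 1 stood alone and the other controls were close to the exposed arrays. Its differences of 1.23 ± 0.81 (adjusted p = 0.395) and 1.19 ± 0.81 (adjusted p = 0.578) did not pass, and without that array they were 0.29 and 0.32. Or6k6, also among the 4 brightest by mean, had 0.93 ± 0.39 at 7 days and 0.43 without that array.

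Or10j27 was one of several. In 22 members control replicate 1 of 7 days lay at least 1 log2 unit below both other controls, in 15 members that of 28 days did, and 9 members did so at both days, 4 of them of subfamily Or10j. Or10j as a whole had a median difference of 1.16 at 7 days and 1.09 at 28 days with 0 of 5 genes past the test, and both medians were 0.37 without control replicate 1. Or6c216, with 7.31, 7.79 and 7.25 in exposed nose at 7 days and 4.58, 7.93 and 7.40 in control nose, had a difference of 0.81 that turned to -0.21 without that array. Of the 254 members without such a step 161 were higher, and without control replicate 1 the count over all members was 115 and the median 0.80. Or12e1 and Or12j5 then had 3.94 and 3.55. Calls fell over the whole array as well. Of all 29214 probe sets 858 were higher and 288 lower without that array, against 2109 and 1642 with it.

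Some bright members differed little between exposed and control nose at 7 days. Or10d5 had 8.25, 8.38 and 8.25 in exposed nose at 7 days, against 8.19, 8.40 and 8.33 in control nose, a difference of -0.01 ± 0.09. Or10aa1 and Or10ac1 had differences of 0.06 ± 0.11 and 0.21 ± 0.10. None of these passed the test. On the blood arrays of 7 days Or10d5 had 8.16, 8.33 and 8.31 in exposed blood and 8.11, 7.89 and 7.98 in control blood, groups that did not overlap, though the difference of 0.27 ± 0.11 did not pass the test.

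Some genes that serve the receptors were higher at 7 days as well. Of 15 measured genes of odor transduction 6 were higher and 0 lower, and 2 were higher without control replicate 1. Slc24a4, an exchanger that clears calcium after a response, rose by 1.88 ± 0.34 (adjusted p = 0.00778) and the phosphodiesterase Pde4a by 1.26 ± 0.22. Omp, the marker of mature olfactory neurons, had 13.07, 12.80 and 12.75 in exposed nose, against 9.62, 11.66 and 11.33 in control nose. Its difference of 2.00 ± 0.74 did not pass (adjusted p = 0.103), with control replicate 1 far below the rest, and was 1.38 without that array. Of 13 genes of receptor transport and receptor gene choice 6 were higher and 0 lower. Rtp2, which carries receptors to the cell surface, rose by 1.10 ± 0.17 (adjusted p = 0.00312), and the transcription factor Ebf1 by 1.34 ± 0.30 (adjusted p = 0.0174). Without control replicate 1 only Rtp2 passed (0.97, adjusted p = 0.0145), and Ebf1 was at 1.18 (adjusted p = 0.0796). Slc24a4 (1.66) and Pde4a (1.15) passed without it.

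Among the genes of axon identity and zone, Ncam2 rose and Nqo1 fell at 7 days. Ncam2, an adhesion molecule of neurons in the ventral zones, had 10.17, 9.18 and 9.48 in exposed nose at 7 days, against 7.31, 7.16 and 7.44 in control nose, and rose by 2.31 ± 0.29 (adjusted p = 0.00129). Nqo1, a quinone reductase that marks dorsal neurons and is also found in other nasal cells, had 11.10, 11.75 and 11.84 in exposed nose, against 12.22, 12.30 and 12.54 in control nose, and fell by 0.79 on the log2 scale (SE 0.20, adjusted p = 0.0275). Control replicate 1 lay near the other controls for both genes. In the list of 10 measured genes of axon identity and zone 4 were higher, with Kirrel3 next to Ncam2 by p (0.81 ± 0.19), and 1 was lower, Nqo1. Acsm4 of that list had the opposite sign to Nqo1 but did not pass, at 0.98 (adjusted p = 0.494) and 0.31 without control replicate 1. A pattern by zone was not tested. Without control replicate 1 only Ncam2 passed (2.31), and Nqo1 had -0.86 (adjusted p = 0.0702) and Kirrel3 0.66 (adjusted p = 0.0886).

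Markers of other cells also shifted at 7 days. Of 7 endothelial markers 6 were lower, Pecam1 by -0.97 ± 0.15 and Erg by -0.71 ± 0.11, and of 6 leukocyte markers 3 were lower, Ptprc by -0.93 ± 0.15 and Cd3e by -0.64 ± 0.14. Of 7 measured ciliated cell markers 3 were higher, with Ccdc40 at 0.68 ± 0.13 and Ccdc39 at 0.57 ± 0.11. Of 9 genes of progenitors and immature neurons 1 was higher, the growth cone protein Gap43 (0.79 ± 0.19, adjusted p = 0.0246), and Dcx did not pass at 1.92 ± 0.60. None of 6 sustentacular, 4 basal and 4 mucous cell markers passed. By p the foremost were Ermn (0.91) and Sec14l3 (0.74) of sustentacular cells, Tp63 (-0.38) and Krt15 (-1.02) of basal cells, and Spdef (-0.67) and Agr2 (-0.13) of mucous cells. The list mean of the endothelial markers was 8.50 to 8.92 in exposed nose and 9.36 to 9.69 in control nose, and that of the sustentacular markers was 12.66 to 12.88 in exposed nose and 11.45 to 12.28 in control nose. Without control replicate 1 the lower genes were 3 of 7 for endothelium and 1 of 6 for leukocytes (Ptprc), the higher ones were 2 of 7 for ciliated cells, and Gap43 no longer passed (0.61, adjusted p = 0.106). What part these cell types had in the receptors' rise was not tested.

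At 28 days no member passed the test. Of the 276 genes 0 were higher and 0 lower in exposed than in control nose (limma, adjusted p under 0.05), and over all probe sets 0% were higher and 0.00342% were lower. At an unadjusted p under 0.05, 1 member was higher (5.55% of all probe sets) and 2 were lower (7.08%). These were Or10j5 with 0.71 ± 0.30, and Or6b3 with -0.31 ± 0.10 and Or6c6h with -0.26 ± 0.12, named after their values were seen. The median difference was 0.13 with an interquartile range of 0.03 to 0.26. All 3 exposed arrays were above all 3 controls in 15 members, or 5.43%, where 6.16% of all probe sets did so, and below in 1, where 7.95% did so.

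Of the 8 members with the largest rises at 7 days, 0 passed the test at 28 days. Or12e1 had 6.73, 6.89 and 6.85 in exposed nose at 28 days, against 6.14, 6.68 and 7.10 in control nose, a difference of 0.18 ± 0.36. Or6c1h had 4.83, 5.83 and 5.36 in exposed nose, against 4.67, 4.86 and 5.02 in control nose, a difference of 0.49 ± 0.29. In both the groups overlapped. Or12j4 had 0.98 ± 0.45 at 28 days (adjusted p = 0.396), with all 3 exposed arrays above the controls, and Or12j3 had 0.76 ± 0.41 (adjusted p = 0.469). The highest differences were those of Or11h4d (1.31 ± 0.61), Or10j7 (1.20 ± 0.79) and Or10j27, which were 0.70, 0.37 and 0.32 without control replicate 1, and the lowest were those of Or13c3c (-0.52 ± 0.37), Or13c3 (-0.42 ± 0.62) and Or6b3. Leaving out control replicate 1 of 28 days gave 0 members past the test as well, although 264 of all probe sets were then higher and 452 lower, and the median over the members was 0.02. Over the 6 fits without 1 array the members' median was 0.02 to 0.24, with 0 members past the test in each.

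**Figure D5:**
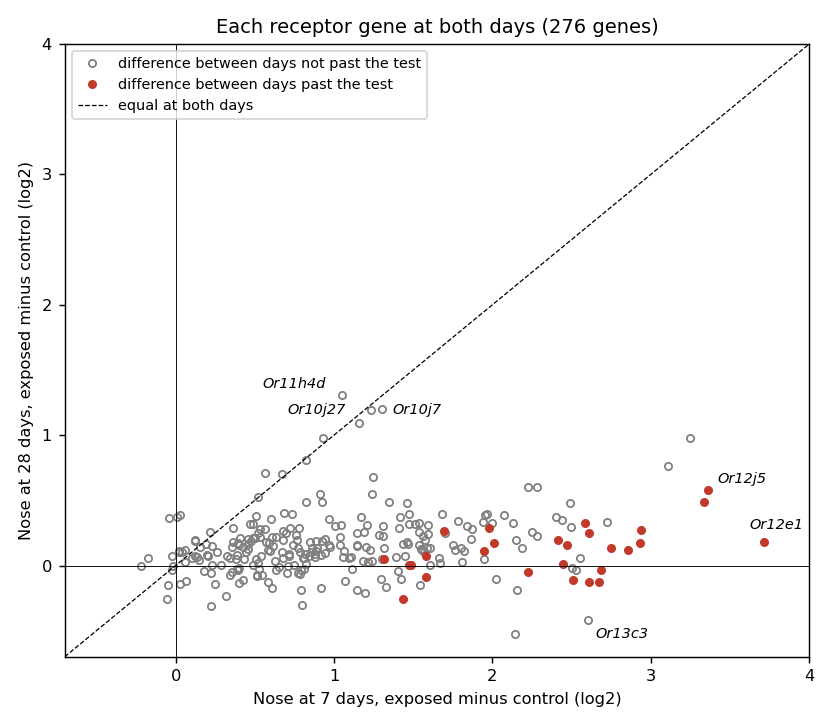
Each of the 276 genes by its exposed minus control difference (log2) in nose at 7 days (x axis) and at 28 days (y axis), with filled red dots where the difference between the days passed the test. Differences reach 3.72 at 7 days and 1.31 at 28 days; Or11h4d, Or10j27 and Or10j7 lie near the dashed line of equal differences, Or12e1 and Or12j5 far below it.

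Whether the days differed was tested directly, by subtracting the effect at 7 days (exposed minus control nose) from that at 28 days. It was below 0 in 27 members and above 0 in 0 (limma, adjusted p under 0.05), where 0.466% of all probe sets were below and 0.0308% above. With the replicate number as a block it was below 0 in 6 members. The median over the members was -0.78, against 0.03 over all probe sets. By p the foremost were Or6b6 (-1.69 ± 0.23, adjusted p = 0.0224), Or14j5e (-2.26 ± 0.32, 0.0224), Or12e1 (-3.53 ± 0.50, 0.0233) and Or6c1h (-2.85 ± 0.41, 0.0239). Family 14 had 7 of 21 genes among the 27 and family 10 had 2 of 71. The count was unstable. Without 1 of the 12 nose arrays it was between 0 and 98, and only without exposed replicate 1 of 7 days (24) was it within 1.5 times of 27. It was 0 without control replicate 2 or 3 of 7 days, control replicate 3 of 28 days or exposed replicate 1 of 28 days. It was 98 without control replicate 1 of 28 days and 61 without exposed replicate 2 of 7 days. The remaining 5 arrays gave 1 to 9. Calls over all probe sets moved too. With all nose arrays 136 were below 0 and 9 above. Without control replicate 1 of 28 days 1161 were below and 924 above, and without exposed replicate 2 of 7 days 234 and 19. The members' median was -0.89 to -0.59 in the fits without 1 array. The arrays of the 2 days also differed in spread. Over all probe sets the lower and upper quartiles were 6.83 to 6.92 and 9.63 to 9.66 on the 7 day nose arrays. On the 28 day nose arrays they were 6.21 to 6.44 and 8.43 to 8.60. In this contrast the day and the scale of its arrays cannot be told apart.

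In blood no member passed the test at either day. At 7 days 0 of the 276 genes were higher and 0 lower in exposed than in control white blood cells (limma, adjusted p under 0.05), where 0.0479% of all probe sets were higher and 0.14% lower. At 28 days it was again 0 and 0, where 2.56% of all probe sets were higher and 0.626% lower. At an unadjusted p under 0.05, 17 members were higher (7.47% of all probe sets) and 6 lower (5.3%) at 7 days, and 9 were higher (7.43%) and 6 lower (7.29%) at 28 days. The median differences were 0.03 at 7 days and -0.01 at 28 days. By p the foremost at 7 days were Or14a257c (0.33 ± 0.09, adjusted p = 0.167) and Or10a3 (0.31 ± 0.09, 0.17), and at 28 days Or6c69 (0.65 ± 0.21, 0.136) and Or14a258 (-0.28 ± 0.09, 0.14).

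The 7 day effect in nose was larger than that in blood in 147 members and smaller in 0 (limma on all 24 arrays, adjusted p under 0.05), where 6.15% of all probe sets had a larger and 4.76% a smaller effect. The median of the nose effect minus the blood effect was 0.95. Or12e1 had 3.16, 3.54 and 3.42 in exposed blood, against 3.29, 3.42 and 3.14 in control blood, and its effect in nose exceeded that in blood by 3.63 ± 0.40. For Or6c1h the excess was 3.49 ± 0.33, and for Or10aa1 the value was -0.18 ± 0.26.

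Unexposed tissue was compared last, to see which members were above their blood level without formaldehyde. In unexposed nose against unexposed blood 215 members were higher and 8 lower at 7 days, where 59.5% of all probe sets were higher and 13.7% lower, and 244 were higher and 2 lower at 28 days, where 51% were higher and 20.8% lower. These counts turn on the scale of the arrays, since all probe sets had a median of 0.44 at 7 days and 0.29 at 28 days, against 0.82 and 1.01 over the members. With each array centred on its median, 68 members (24.6%) were higher and 69 (25%) lower at 7 days and the members' median was 0.01, while 21.3% of all probe sets were higher and 54.9% lower. With quantile normalisation 88 members were higher and 41 lower, and 27% and 41.5% of all probe sets were. At 28 days centring gave 146 members higher and 18 lower, against 25.1% and 47.4% of all probe sets, and quantile normalisation gave 135 and 20, against 29.3% and 42.6%.

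Under all 3 scalings 68 members (24.6%) were higher in unexposed nose at 7 days and 8 (2.9%) were lower, where 21.1% of all probe sets were higher and 13.6% lower. At 28 days 134 members (48.6%) were higher and 2 (0.725%) lower, where 23.8% and 20.2% of all probe sets were. Or6c216 had 4.58, 7.93 and 7.40 in unexposed nose at 7 days, against 2.80, 2.90 and 2.81 in unexposed blood, a difference of 3.80 ± 0.58 (2.99 after centring). Or6c214 had 3.20 ± 0.43 and Or11h4d 3.19 ± 0.46, and in each control replicate 1 was the lowest nose array. Without it Or6c216 had 4.83, Or6c214 3.92 and Or11h4d 3.88. Or12e1, with the largest rise after exposure, was above blood by 1.33 ± 0.28 at 7 days, a call lost after centring (0.52, adjusted p = 0.0993), and Or12j5 was at 0.33 ± 0.26, which turned to -0.49 after centring. Or10aa1 was lower in nose under all 3 scalings, with 8.12, 8.18 and 8.30 in unexposed nose, against 9.48, 9.13 and 10.09 in unexposed blood (-1.37 ± 0.18), and it stayed lower at 28 days (-1.01 ± 0.18).

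The other odorant receptors give a frame for the result at 7 days. The 59.1% that were higher compare with 51.9% of the 776 other receptor genes, whose median was 0.95 (0.92 in the members). Family 4 had 114 of 133 genes higher (median 1.62), families 5 and 8 had 118 of 270 (0.97), families 1, 2, 3 and 7 had 164 of 252 (1.03), and the class I families had 7 of 121 (0.43). With all nose arrays in the fit, families 12 and 14 had shares nearer to that of family 4. Subfamilies Or6k, Or10d, Or10g and Or10j had shares nearer to that of class I. At 28 days 0 genes passed in any of these groups. No test between the groups was made, and all of them share the same arrays.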

How the data were processed

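Nasal epithelium and white blood cells of exposed and control rats were measured on Affymetrix arrays. The deposited values are linear intensities that the authors had already normalised. The submitters' processing notes name Partek, while the program's version and the way it normalised were not given in the sources used here. Of 29214 probe sets, 15310 have 1 gene symbol in the probe table, 323 have several and 13581 are not listed there. Symbols were updated by gene ID through RefSeq (GRCr8), and 38 probe sets with several symbols that include a gene of these families were left out.

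The log2 intensities of all probe sets, with no filter, were fitted with limma 3.58.1 in R 4.3.3, 12 nose or 12 blood arrays at a time and 24 arrays for contrasts between tissues. A call needed a Benjamini-Hochberg adjusted p under 0.05, with the adjustment made across the whole array. Every adjusted p in the text comes from these limma fits, and ± is the SE of the fit. The fits were checked on simulated data. Figures were drawn with matplotlib 3.10.9. The number of arrays limits the precision.

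The members, the 10 gene lists (94 symbols, 81 measured) and the tests were chosen with earlier results of these data known. Named members were the 8 largest rises in nose at 7 days, the smallest p in each family, the 4 highest mean levels in nose, the 3 smallest differences among the 20 highest, the extremes at 28 days, the 4 smallest p between days, the 2 smallest p in blood at each day and the 3 largest excesses of unexposed nose over blood. Of each list the 2 genes with the smallest p were named. Or6c1, Or12j2, Or12j2b, Or12e9, Or10j5, Or6c6h, Nqo1, Acsm4 and Omp were added after their values were seen.

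Alternatives were filters, scalings, an offset, other array sets, other thresholds, the replicate number as a block and leaving out each array. Deviations from the group means of same-numbered exposed and control samples correlated at 0.133, 0.134 and 0.190 in nose at 28 days. Each was over 0.1, the mark at which pairing was considered. The labels name no shared source, and in the other pairs of groups the correlations were -0.301 to 0.114, some of them larger in size. Pairing was therefore not shown, and the main fits used no block.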

Additional observations from a re-analysis of the deposited data

Results flagged for a closer look

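In 27 members the nasal response to formaldehyde was smaller at 28 than at 7 days, and in 0 it was larger. This count was 0 to 98 when 1 of the 12 nose arrays was left out and 6 with the replicate block. The 4 with the smallest p were Or6b6 (28 day effect minus 7 day effect -1.69), Or14j5e (-2.26), Or12e1 (-3.53) and Or6c1h (-2.85). They passed in 7, 5, 4 and 6 of the 12 fits without 1 array, in that order. The effect at 7 days differed between the tissues in 147 members, all with a larger effect in nose than in blood. Each difference was tested as a contrast, that between the days on the 12 nose arrays and that between the tissues on all 24. No test for an outlying array was made in groups of 3.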

How the results depend on the processing

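The differences of the named members in nose at 7 days were refitted under the alternatives. They kept their direction and side of the threshold, past or not past, in 438 refits. They changed sign in 4, lost a call in 5 and gained a call in 4. Refits in which a filter dropped the member were not counted. Many of these members were chosen by this same contrast, so their stability does not stand for that of all members. Filters used the mean over all arrays of a tissue, exposed ones included, so members could pass through the group where they were high. In nose, a filter at the 25th percentile kept 153 of the 276 members and 21910 of all probe sets. Of these probe sets 1847 were higher and 1717 lower at 7 days. Under the filter the count of members was 95 for nose at 7 days, 1 between the days and 31 for nose minus blood at 7 days. For unexposed nose minus blood it was 46 and 51 at 7 and 28 days. With a filter at the median these counts were 6, 0, 2, 5 and 4, with fewer members tested. Each count joins higher and lower calls. Under that filter 1185 of 14607 probe sets were higher and 1182 lower in exposed nose at 7 days. For unexposed nose minus blood, of 11883 probe sets 6370 were higher and 2247 lower at 7 days. At 28 days 4517 were higher and 3879 lower. The medians with the 25th percentile filter were 0.084 in blood at 7 days, 0.58 for nose minus blood, and 0.47 and 0.63 for unexposed tissue. With the filter at the median they were 0.13, 0.27, 0.32 and 0.21, and -0.33 between the days. Quantile normalisation gave 8 members between the days, 129 and 155 for unexposed nose minus blood at 7 and 28 days, and medians of 0.13 and 0.41. Centring gave 137 at 7 days, medians of 0.0053 and 0.49, and a median of -0.0052 in blood at 7 days. An offset of 32 gave medians of 0.74 for nose minus blood, and 0.48 and 0.60 for unexposed tissue. The count between the days was 114 with all 24 arrays, 51 at an adjusted p under 0.1, 90 at an unadjusted p under 0.005 with 1.5-fold, and 6 with the replicate block. The replicate block gave 153 for nose at 7 days, 143 for nose minus blood and 0 for nose at 28 days, and changed no other count by over 1.5 times. Without 1 array the count was 115 to 159 for nose at 7 days, 0 to 98 between the days, and 0 to 1 for blood at 28 days (1 without control replicate 2). The median was then 0.76 to 1.04 for nose minus blood. Or10d5 lay between -0.073 and 0.033 and Or6c216 between -0.21 and 1.46, both changing sign. The cause was not tested. Dim probe sets limit these results. In control nose at 7 days 161 of the 276 members had a mean below 6.61, the 25th percentile of probe set means over all nose arrays.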
